A study of Mus musculus with 36 samples.

Results

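The 9 genes described here encode chains of the receptors for interleukin-2, interleukin-15, interleukin-21, interleukin-12 and interleukin-18 in mouse natural killer (NK) cells. They were taken by gene symbol: Il2ra (ENSMUSG00000026770), Il15ra (ENSMUSG00000023206), Il2rb (ENSMUSG00000068227), Il2rg (ENSMUSG00000031304), Il21r (ENSMUSG00000030745), Il12rb1 (ENSMUSG00000000791), Il12rb2 (ENSMUSG00000018341), Il18r1 (ENSMUSG00000026070) and Il18rap (ENSMUSG00000026068). All 9 were listed in each of the 4 deposited tables, which have 32938 gene identifiers in common.

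Interleukin-15 keeps NK cells alive and is read through the beta chain (Il2rb) and the common gamma chain (Il2rg), which together also bind interleukin-2. The alpha chain Il2ra, added to the pair, raises the affinity for interleukin-2, and Il15ra binds interleukin-15, often on a neighbouring cell that presents it. Interleukin-12, read by Il12rb1 and Il12rb2, and interleukin-18, bound by Il18r1 with the accessory chain Il18rap, together drive NK cells to make interferon-gamma.

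RNA was sequenced in 36 libraries, 3 in each of 12 groups. For 18 of them, CD27- CD11b+ cells, the mature NK cells of the spleen, were taken from wild-type C57BL/6 mice (WT, B2m+/+) or from B2m knockout mice (KO, B2m-/-), which lack the light chain of MHC class I. These were sorted by inhibitory receptors into TP cells, positive for NKG2A, Ly49C and Ly49I, SP cells, positive for Ly49I alone, and TN cells, negative for all 3. In 6 libraries WT splenocytes had been cultured for 22 h, either with ionomycin, which lets calcium into cells, or with vehicle alone, and NK cells were sorted from them. In 9 libraries WT splenic NK cells had been kept for 48 h, either in medium or on antibodies bound to the plate, which engaged the activating receptors NKp46 and NKG2D in 1 group and NKp46 and DNAM-1 in the other. The last 3 held CD27- CD11b+ NK cells from MC38 B2m-/- tumours, grown for 10 days under the skin of WT B6 mice. MC38 is a mouse colon carcinoma line. The doses, the vehicle, the age of the mice and the strain of the KO mice are not given in the sources used here.

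Values are TPM, a relative abundance of transcripts that is corrected for transcript length, so that levels of different genes can be set side by side within a table. A difference is on the scale of log2(TPM + 1), with its standard error (SE), and a gene is called where the Benjamini-Hochberg adjusted p of limma over all genes of the table is under 0.05. The labels give all libraries of a table the same batch date, and groups of different tables are not compared. The replicates are labelled as biological, but no label says whether libraries with the same number share a mouse, so p-values measure the spread between these libraries. In bulk RNA, fewer cells that express a gene and less RNA per cell cannot be told apart.

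B2m, the targeted gene, stood between 2915 and 3420 TPM in the 9 WT libraries and between 73.9 and 128 TPM in the 9 KO libraries. All 9 NK markers in a fixed list (Ncr1, Klrb1c, Klrk1, Eomes, Tbx21, Nkg7, Prf1, Gzma and Cd7) had a mean of at least 1 TPM in every group, with sums from 5710 to 21817 TPM. In the sorted subsets T cell markers summed to between 169.6 and 259.6 TPM, of which Trbc2 made up 163 to 254 TPM. Cd3g was at most 11.3 TPM, Cd3d at most 10.6 TPM and Cd3e at most 1.25 TPM. B cell markers summed to between 129 and 293 TPM. KO TP cells stood apart by RNA of other cell types. Their plasma cell markers summed to between 224 and 468 TPM, against 28.8 to 39.3 TPM in WT TP cells, and their neutrophil markers to between 61.0 and 217 TPM, against 0 in WT TP cells. Monocyte and macrophage markers summed to between 23.2 and 55.9 TPM, against 11.6 to 14.6 TPM, while the plasma cell gene Sdc1 was at most 0.1 TPM in KO TP cells. In SP and TN cells of both genotypes the neutrophil sum was at most 5.85 TPM.

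The order of the chains by level was alike in steady-state spleen cells of both genotypes. Over the 18 sorted libraries Il2rb was the highest, with a mean of 1919 TPM, and only 24 genes of the table had a higher mean. It was followed by Il18rap (1010.4 TPM), Il2rg (903 TPM), Il18r1 (558 TPM) and Il12rb2 (283 TPM). Much lower were Il12rb1 (44.8 TPM), Il15ra (33.9 TPM), Il21r (14.2 TPM) and Il2ra (0.273 TPM). Over the 18 libraries the ranges of Il18rap and Il2rg overlapped, as did those of Il12rb1 with Il15ra and of Il15ra with Il21r. The other neighbours in this order did not overlap.

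**Figure D1:**
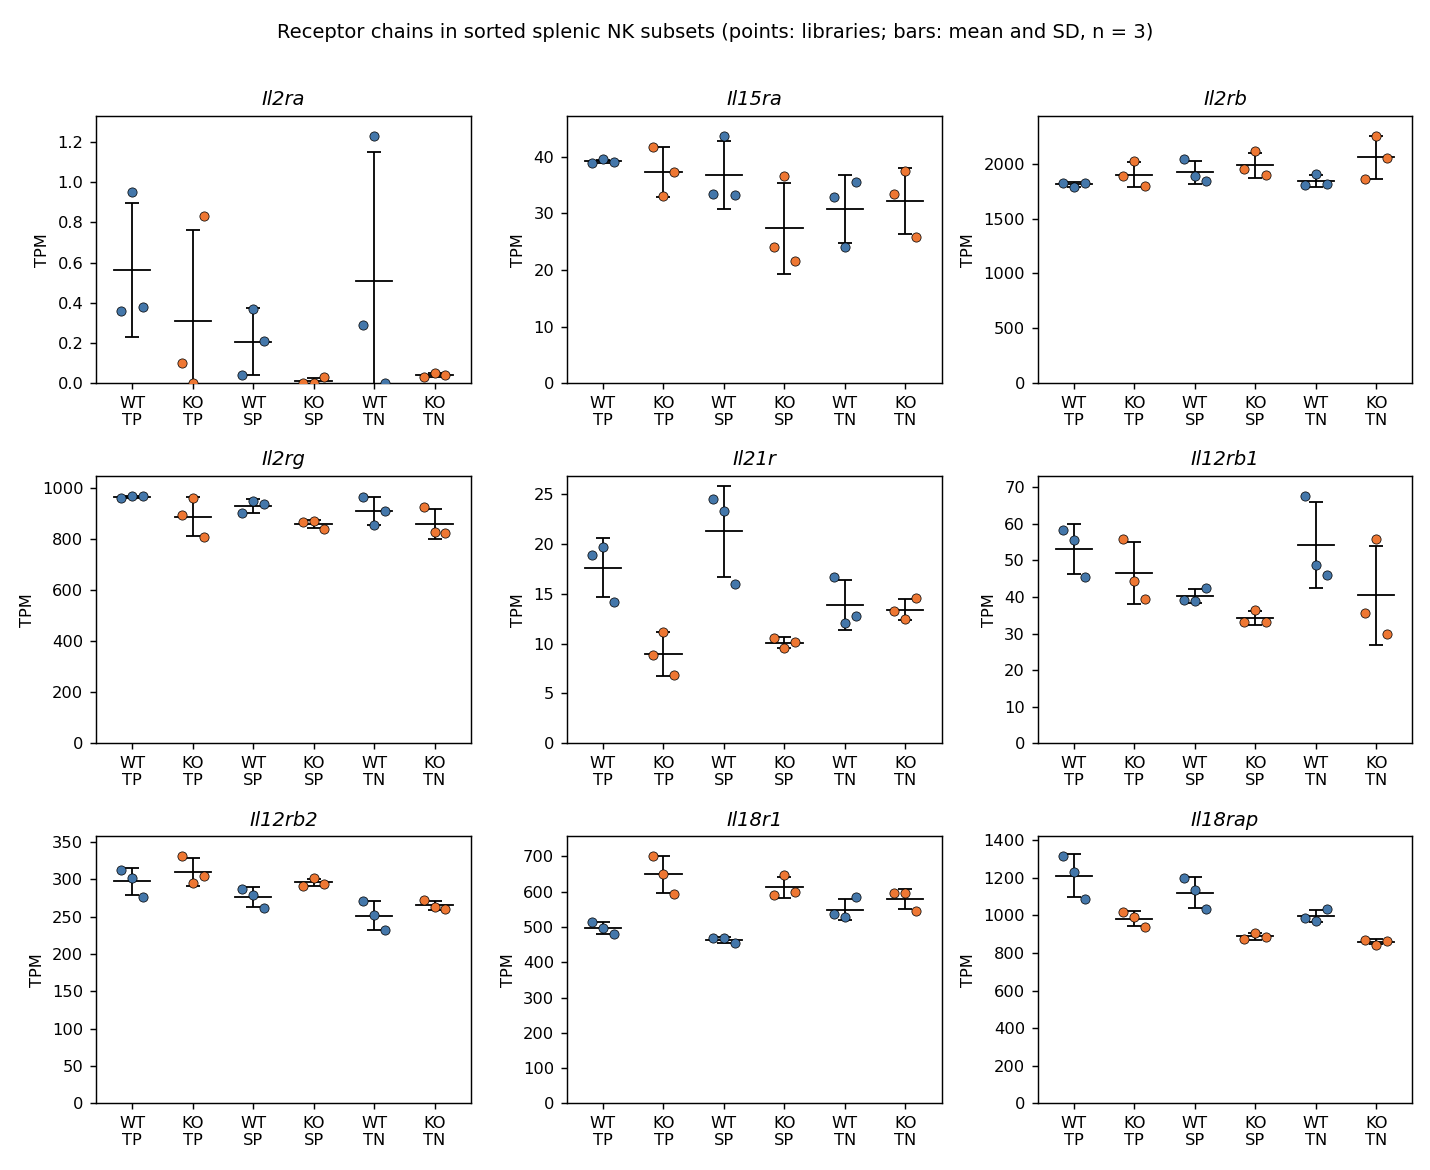
TPM of each receptor chain (y axis, from 0, with its own scale in each panel) in the 6 sorted groups (x axis). Points are libraries, and lines with bars give the mean and SD of 3. Il18r1 is higher and Il18rap and Il21r are lower in KO than in WT cells of the TP and SP subsets, and Il2ra stays near 0 throughout.

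The comparison of B2m knockout with WT cells asks what the chains do where MHC class I is missing. In SP cells 3 of the 8 members tested were called (1 higher, 2 lower), where 1.35% of the 12018 genes tested were. In TP cells 2 of 8 were called (1 higher, 1 lower), where 1.59% of all genes were. In TN cells limma called 0 of 8, where 0.716% of all genes were called. An unadjusted p under 0.05 was found there for 3 of 8 members and for 1263 of the 12018 genes. Il2ra, with a mean under 1 TPM, was not tested. The members called in the TP and SP subsets were the 2 chains of the interleukin-18 receptor, in opposite directions, and Il21r in SP cells.

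Il18r1, the ligand-binding chain of the interleukin-18 receptor, rose in KO cells of the TP and SP subsets. In TP cells it stood at 514, 497 and 481 TPM in the WT libraries (replicates 1, 2 and 3, as in every list of 3 values below) and at 701, 651 and 595 TPM in the KO libraries. Every KO library was above every WT library, and the difference was 0.38 (SE 0.0709, limma adjusted p 0.00769). In SP cells it stood at 467, 469.9 and 453 TPM in WT and 591, 647 and 598 TPM in KO cells. The groups again did not overlap, with a difference of 0.40 (SE 0.0709, limma adjusted p 0.00556). In TN cells the values were 537, 527 and 584 TPM in WT and 596, 596 and 546 TPM in KO cells. Here the groups overlapped, and the difference of 0.08 was not called (limma adjusted p 0.769, 95% interval -0.07 to 0.23).

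Il18rap, the accessory chain needed for the signal, fell in the same cells. In TP cells it stood at 1316, 1230.5 and 1088 TPM in WT and 1018, 991 and 941 TPM in KO libraries. All 3 KO libraries were under all 3 WT libraries, and the difference was -0.30 (SE 0.0705, limma adjusted p 0.0424). In SP cells it stood at 1200.0, 1133 and 1032 TPM in WT and 872, 909 and 884 TPM in KO libraries. The groups did not overlap there either, and the difference was -0.33 (SE 0.0705, limma adjusted p 0.0212). In TN cells the values were 987, 970.5 and 1035 TPM in WT and 872, 844 and 864 TPM in KO libraries. These groups did not overlap, but the difference of -0.21 was not called (limma adjusted p 0.248).

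The 2 genes are neighbours on mouse chromosome 1 in the RefSeq annotation of GRCm38.p6, with no other coding gene between them. Since they lie side by side and moved in opposite directions, their promoter windows, from 250 bases before to 50 after the annotated start, are shown. RefSeq lists 3 windows for Il18r1, on the plus strand, and the third, at chr1:40465756-40466055, held 2 matches to the STAT-binding GAS motif TTCNNNGAA, here in capitals.
Il18r1: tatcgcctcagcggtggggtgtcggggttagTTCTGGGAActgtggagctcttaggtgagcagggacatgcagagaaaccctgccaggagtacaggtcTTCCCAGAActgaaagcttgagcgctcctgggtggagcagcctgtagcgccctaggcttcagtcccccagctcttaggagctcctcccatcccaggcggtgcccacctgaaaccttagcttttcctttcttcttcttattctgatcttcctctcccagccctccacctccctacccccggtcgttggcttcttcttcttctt
The window of Il18rap, at chr1:40515112-40515411 on the plus strand, held none.
Il18rap: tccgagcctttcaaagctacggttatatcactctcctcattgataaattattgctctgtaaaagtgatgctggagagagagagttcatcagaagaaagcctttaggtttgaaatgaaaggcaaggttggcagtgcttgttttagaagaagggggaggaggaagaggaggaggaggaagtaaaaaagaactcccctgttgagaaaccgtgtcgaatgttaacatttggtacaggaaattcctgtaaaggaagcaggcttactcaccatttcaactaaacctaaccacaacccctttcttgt
Both strands were searched, and 8.3% of 32851 promoter windows of this length held the GAS motif. That share is per window, and Il18r1 had 3 windows. The window of Il12rb2, a member not called between genotypes in any subset, also held a GAS match. The AP-1 motif TGANTCA (7.81% of windows) and the T-box motif TCACACC (3.98% of windows) were not found in either window, and the other 2 windows of Il18r1 held none of the 3 motifs. These matches describe the letters, and TPM per gene do not tell which start was used.

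The level of Il18rap relative to Il18r1 sums up both differences in 1 value per library. This ratio was chosen after the levels had been seen. It was 2.56, 2.48 and 2.26 in WT TP cells and 1.45, 1.52 and 1.58 in KO TP cells. In SP cells it was 2.57, 2.41 and 2.28 in WT and 1.48, 1.40 and 1.48 in KO libraries. In TN cells it was 1.84, 1.84 and 1.77 in WT and 1.46, 1.42 and 1.58 in KO libraries. The 9 KO libraries lay between 1.40 and 1.58 and the 9 WT libraries between 1.77 and 2.57, with no overlap. Among WT cells the TN libraries were the lowest, and in KO cells the 3 subsets overlapped. Between genotypes the log2 difference of the ratio was -0.68 for TP, -0.73 for SP and -0.29 for TN. Each had an exact two-sided permutation p of 0.1, the smallest that 3 against 3 libraries can give. In TP and SP cells both chains had already separated in opposite directions, so the ratio had to separate and its p adds no support. How many other gene pairs separate in this way was not counted.

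**Figure D2:**
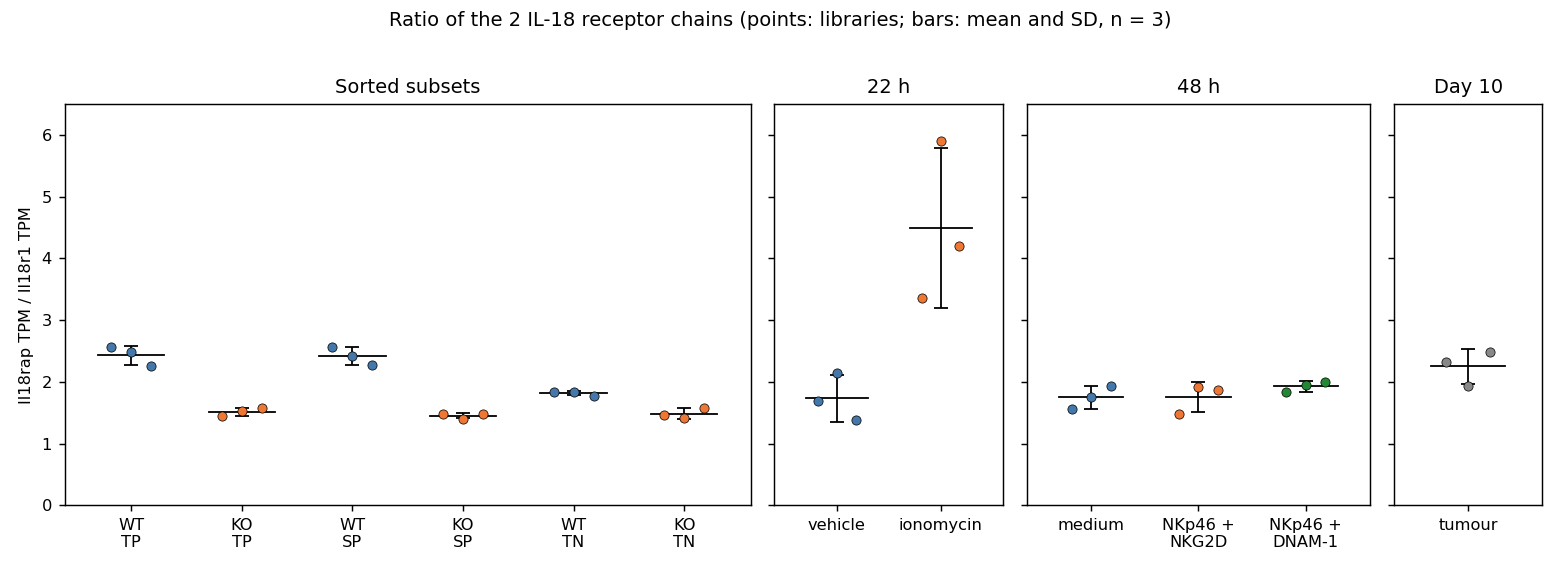
Il18rap TPM divided by Il18r1 TPM (y axis, from 0) in each library (points), by group (x axis), with 1 panel for each table and the mean and SD of 3 as lines with bars. In the sorted subsets every KO library (1.40 to 1.58) is under every WT library (1.77 to 2.57), and the ionomycin libraries (3.36 to 5.90) are above the vehicle libraries (1.38 to 2.14).

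Il21r, which pairs with the gamma chain to read interleukin-21, was expressed at a low level and fell in KO SP cells. In SP cells it stood at 24.5, 23.2 and 16.0 TPM in WT and 10.5, 9.52 and 10.2 TPM in KO libraries. The groups did not overlap, and the difference was -0.98 (SE 0.228, limma adjusted p 0.0405). In TP cells it stood at 18.9, 19.7 and 14.2 TPM in WT and 8.80, 11.2 and 6.80 TPM in KO libraries. These did not overlap either, but the difference of -0.92 missed the threshold (SE 0.228, limma adjusted p 0.0555). In TN cells the values were 16.7, 12.1 and 12.8 TPM in WT and 13.2, 12.4 and 14.6 TPM in KO libraries, which overlapped.

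The chains shared by interleukin-2 and interleukin-15 were not called between genotypes in any subset. Il2rb stood at 1810.2 ± 19.5 TPM (SD, n = 3) in WT TP and 1901 ± 112 TPM in KO TP cells. In SP cells it was 1923 ± 104 TPM in WT and 1985 ± 112 TPM in KO cells. The largest difference was that of TN cells, with 1839.6 ± 53.4 TPM in WT and 2056 ± 196 TPM in KO cells, and it was not called (0.16, limma adjusted p 0.433). Il2rg, the gamma chain that all of these except the interleukin-12 and interleukin-18 receptors use, ran from 856 to 969 TPM in the 9 WT and from 807 to 963 TPM in the 9 KO libraries. Its differences were between -0.13 in TP and -0.08 in TN cells, and none was called. In SP cells alone its genotypes did not overlap, with 901 to 951 TPM in WT and 841 to 872 TPM in KO libraries. Il15ra ran from 24.1 to 43.6 TPM in WT and from 21.6 to 41.8 TPM in KO libraries, and was not called in any subset. The alpha chain Il2ra did not exceed 1.23 TPM in WT or 0.83 TPM in KO libraries and was listed at 0 in 4 of 18.

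Of the interleukin-12 receptor, Il12rb2, the chain that is limiting for the response in many lymphocytes, was several times as high as its partner Il12rb1 in all 18 libraries. Il12rb2 stood at 288, 279.5 and 261 TPM in WT SP and 292, 302 and 294 TPM in KO SP libraries. These did not overlap, and the difference of 0.10 was not called (limma adjusted p 0.655). Il12rb1 stood at 39.3, 39.0 and 42.4 TPM in WT SP and 33.2, 36.5 and 33.2 TPM in KO SP libraries. These did not overlap either, and the difference of -0.22 was not called (limma adjusted p 0.730). Neither chain was called in TP or TN cells. In TN cells Il12rb1 spread most, with 67.6, 48.6 and 46.1 TPM in WT and 35.7, 55.8 and 29.8 TPM in KO libraries, which overlapped.

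Without overlap between the genotypes were 3 of the 8 members tested in TP cells (18.3% of tested genes), 6 of 8 in SP cells (18.9%) and 1 of 8 in TN cells (13.7%). Il2ra, which was not tested, also did not overlap in SP cells. No single member separated all 9 KO from all 9 WT libraries, which 1.22% of tested genes did. Averaged over the 3 subsets, Il18r1 differed by 0.29 (SE 0.0409, limma adjusted p 0.000271). Il18rap differed by -0.28 (limma adjusted p 0.00029) and Il21r by -0.64 (limma adjusted p 0.00631). These 3 of 8 members tested were called, against 6.18% of all genes. With 1 mean value per genotype and replicate number, Il18r1 and Il18rap were still called and Il21r was not (limma adjusted p 0.0883).

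The RNA of plasma cells and neutrophils in KO TP cells moved with the TP comparison, and its part in the TP differences was not tested. In SP cells the plasma cell markers summed to at most 18.0 TPM in WT and 11.2 TPM in KO libraries. Cd27, a gene of less mature NK cells whose protein was used as a gate, did not overlap in SP cells. It was at 114, 122 and 113 TPM in WT SP and 168, 156 and 144 TPM in KO SP cells. Kit went the other way, at 32.8, 32.8 and 51.1 TPM in WT SP and 0.51, 1.24 and 3.57 TPM in KO SP cells. In TP cells neither gene overlapped between the genotypes. Cd27 was at 84.5, 89.8 and 118 TPM in WT TP and 158.5, 130 and 128 TPM in KO TP cells. Kit was at 48.7, 43.1 and 52.5 TPM in WT TP and 2.58, 1.65 and 2.12 TPM in KO TP cells. In TN cells Cd27 overlapped and Kit did not. Itgam, the CD11b gene of the same gate, overlapped between the genotypes in SP cells. The part of these genes in the result was not tested. The call of Il18r1 in TP cells was lost without KO TP replicate 1 (limma adjusted p 0.0563), and that of Il18rap without any single library but WT TP replicate 3 (0.0798 to 0.183). In SP cells Il18r1 was called without each library in turn, while Il18rap (0.0656 to 0.102) and Il21r (0.113 to 0.150) lost their calls without any one but WT SP replicate 3. In TP and in SP cells no member, Il18r1 included, was called in a fit of only the compared groups. Without the variance trend of limma only Il21r was called in either subset.

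**Figure D3:**
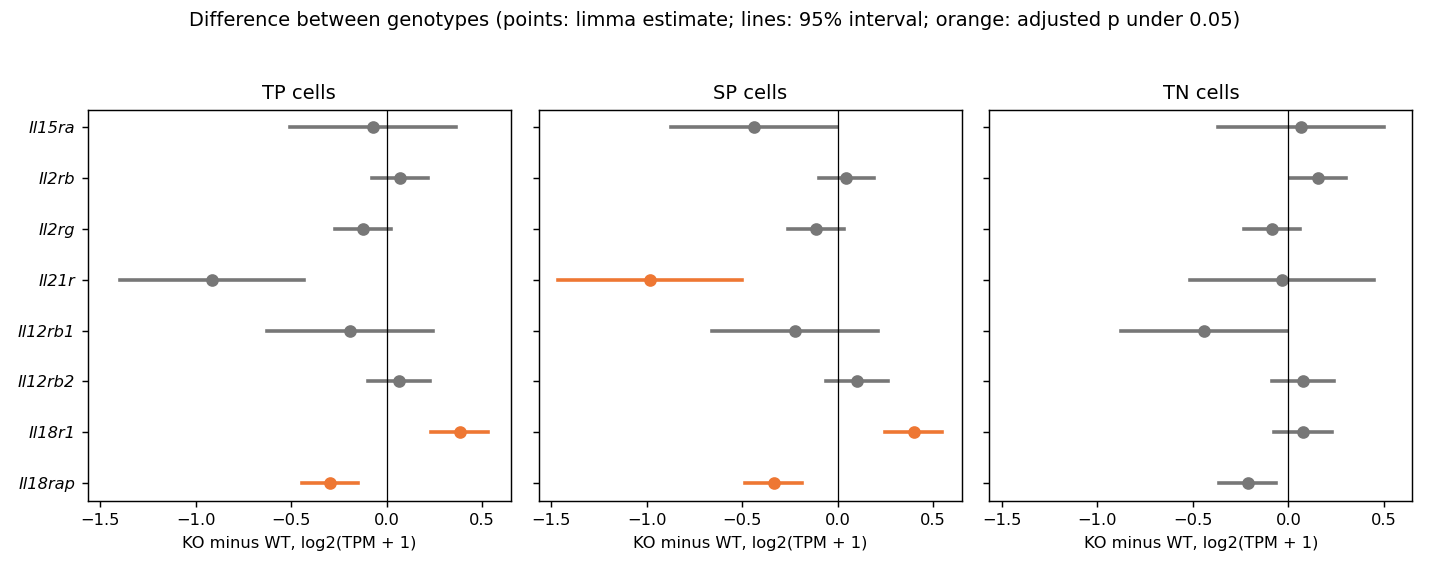
Difference between KO and WT cells (x axis, log2(TPM + 1)) for the 8 members tested (y axis) in TP, SP and TN cells, with the limma estimate as a point and its 95% interval as a line. Orange marks an adjusted p under 0.05, which holds for Il18r1 and Il18rap in TP and SP cells and for Il21r in SP cells.

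The comparison of sorted subsets within a genotype asks whether the chains vary with the inhibitory receptors that a cell carries. Limma called 0 of the 8 members tested in each of 6 such comparisons. The share of all genes called was 0.191% for WT SP against TP, 1.31% for WT TN against TP and 0.383% for WT TN against SP. In KO cells it was 0.2% for SP against TP, 0.524% for TN against TP and 0.0416% for TN against SP. An unadjusted p under 0.05 was found for 0, 2, 3, 1, 4 and 0 members, in that order. The same held for 927, 1504, 1452, 352, 773 and 333 of the 12018 genes tested. In WT cells the lowest adjusted p was that of Il18rap, whose 3 TN libraries lay under the 3 TP libraries, with a difference of -0.28 (limma adjusted p 0.0704). It was called without WT TP replicate 3 (adjusted p 0.0189).

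With both genotypes together, 2 of 8 members were called lower in TN than in TP cells, where 1.89% of all genes were called. Il12rb2 stood at 313, 302 and 277 TPM in WT TP and 271, 252 and 232 TPM in WT TN libraries. In KO mice it stood at 331, 295 and 305 TPM in TP and 272, 263 and 260.4 TPM in TN libraries. All 6 TN libraries (232 to 272 TPM) were under all 6 TP libraries (277 to 331 TPM), and the averaged difference was -0.23 (SE 0.0545, limma adjusted p 0.0331). Il18rap fell by a like amount (-0.23, SE 0.0498, limma adjusted p 0.0173), with TN under TP libraries within each genotype. Cd27 lay between 84.5 and 118 TPM in WT TP and between 169.98 and 205 TPM in WT TN libraries, and between 128 and 158.5 TPM in KO TP and between 184 and 239 TPM in KO TN libraries. Itgam lay between 608 and 744 TPM in the 6 TP and between 519.8 and 592 TPM in the 6 TN libraries. The part of these genes, and of the plasma cell and neutrophil RNA of KO TP cells, in the differences was not tested. The call of Il12rb2 was lost without any one of 9 of the 12 libraries (limma adjusted p 0.0515 to 0.0915), all but WT TP replicate 3, WT TN replicate 1 and KO TP replicate 2. That of Il18rap was lost without WT TP replicate 1 (0.0549), WT TP replicate 2 (0.0505) or KO TP replicate 1 (0.0521).

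Whether TN cells differed from TP cells in another way in KO than in WT mice was tested as an interaction. Limma called 0 of 8 members, where 0.025% of all genes were called. An unadjusted p under 0.05 was found for 2 members and for 754 of the 12018 genes tested. For Il21r, TN was -0.32 against TP in WT and 0.56 in KO cells, a difference of 0.88 between genotypes (limma adjusted p 0.701). For Il18r1 the corresponding difference was -0.30 (limma adjusted p 0.641). The genotype differences of these genes in TP and SP cells, beside their absence of a call in TN cells, are thus not shown to differ between TP and TN, and SP was not tested against TN.

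The genes whose levels followed a called member most closely over the 18 sorted libraries were listed by Pearson correlation of log2(TPM + 1), as a description, since these libraries share groups and a batch date. For Il18rap they were Ncr1 (0.957), which encodes NKp46, Itgb2 (0.919), a beta chain of leukocyte integrins, and Spata13 (0.911). For Il12rb2 they were Itgam (0.929), the CD11b gene used as a gate, Kcnj8 (0.86) and Spn (0.856), which encodes CD43. For Il18r1 they were Bfar (0.901), Slc38a2 (0.897), an amino acid transporter, and Tmpo (0.895). For Il21r they included Actg1 (0.834), a cytoplasmic actin, and Camk2n1 (0.833).

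The comparison of ionomycin with vehicle asks what a sustained calcium signal does to the chains. Limma called 0 of 9 members, where 2.91% of 14372 genes were called. An unadjusted p under 0.05 was found for 4 members and for 2169 of all genes. The count of called members depends on pairing, which no label settles. With the replicate number as a block Il2ra, Il2rb, Il12rb1 and Il12rb2 were called, in a fit that called 477 of all genes. The groups did not overlap for 5 of 9 members, against 20.1% of all genes: Il2rb, Il2rg, Il12rb1 and Il12rb2 were lower in every ionomycin library than in every vehicle library, and Il21r was higher. The vehicle libraries differed widely among themselves. Ifng, the interferon-gamma gene, stood at 27589, 2522 and 82.4 TPM in them and at 1556, 1002 and 852 TPM in the ionomycin libraries, and Gzmb, a cytotoxic protease gene, at 4665, 2065 and 362 and 857, 333 and 265 TPM. The neutrophil gene S100a9 was at 0, 0 and 150.0 TPM in the vehicle libraries and at 0, 0 and 57.3 TPM in the ionomycin libraries. NK markers did not overlap between the groups either: their sum was 5710 to 7242 TPM with ionomycin and 7943 to 14006 TPM with vehicle. Ncr1 lay between 94.0 and 141 TPM with ionomycin and between 512 and 1073 TPM with vehicle, and Cd27 between 293 and 367 TPM with ionomycin and between 38.0 and 123 TPM with vehicle. The part of all these differences in the values of the chains was not tested.

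Il2ra, which activated lymphocytes induce, showed the same wide spread. It stood at 509.8, 124 and 15.3 TPM in vehicle and at 47.1, 13.6 and 5.32 TPM in ionomycin libraries. The highest and the lowest vehicle library for Il2ra were also the highest and the lowest for Ifng, and the groups overlapped. Within each replicate number the ionomycin library was the lower. The difference of -2.62 had an interval from -5.28 to 0.04 (95%, limma adjusted p 0.341). Il12rb1 stood at 357, 157 and 36.6 TPM in vehicle and at 29.7, 18.3 and 13.7 TPM in ionomycin libraries, with no overlap. Its difference of -2.65 was not called (limma adjusted p 0.105).

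Il12rb2 came closest to a call. It stood at 251, 487 and 304 TPM in vehicle and at 133, 159 and 141 TPM in ionomycin libraries, a difference of -1.21 (SE 0.267, limma adjusted p 0.0524). Il2rb stood at 3049, 3803 and 2489.5 TPM in vehicle and at 1974, 1714 and 1438 TPM in ionomycin libraries. Its difference was -0.86 (limma adjusted p 0.0884). Il2rg stood at 938, 1075 and 513 TPM in vehicle and at 381, 424 and 371 TPM in ionomycin libraries. Its difference was -1.03 (limma adjusted p 0.103). The vehicle libraries were again the ones that spread, and the 3 ionomycin libraries of Il2rg and Il12rb2 lay close together. Il21r, at 2.34, 7.17 and 4.54 TPM in vehicle and 10.8, 8.88 and 14.7 TPM in ionomycin libraries, ran the other way (1.20, limma adjusted p 0.340). Il15ra overlapped between the groups, at 40.1 ± 14.2 TPM (SD, n = 3) in vehicle and 43.2 ± 15.0 TPM in ionomycin libraries.

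The interleukin-18 receptor chains again had differences of opposite sign, neither of them called. Il18r1 stood at 349.9, 849 and 831 TPM in vehicle and at 424, 389 and 411 TPM in ionomycin libraries (-0.62, limma adjusted p 0.444). Il18rap stood at 591, 1817 and 1149 TPM in vehicle and at 1424, 2298 and 1722 TPM in ionomycin libraries (0.73, limma adjusted p 0.436). For both chains the groups overlapped: vehicle replicate 1 was under all ionomycin libraries for Il18r1, and vehicle replicate 2 was above 2 of them for Il18rap. The ratio of Il18rap to Il18r1 was 1.69, 2.14 and 1.38 in vehicle and 3.36, 5.90 and 4.19 in ionomycin libraries. These ratios did not overlap, with a log2 difference of 1.35 and an exact two-sided permutation p of 0.1, the smallest possible. With single libraries left out, up to 2 members were called: Il2rg (limma adjusted p 0.0307) and Il12rb1 (0.0413) without vehicle replicate 3, and Il18r1 (0.0307) without vehicle replicate 1. Of all genes 342 and 299 were called in these fits, 24 without vehicle replicate 2 and 3 to 6 without any one ionomycin library, against 418 with all 6 libraries.

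**Figure D4:**
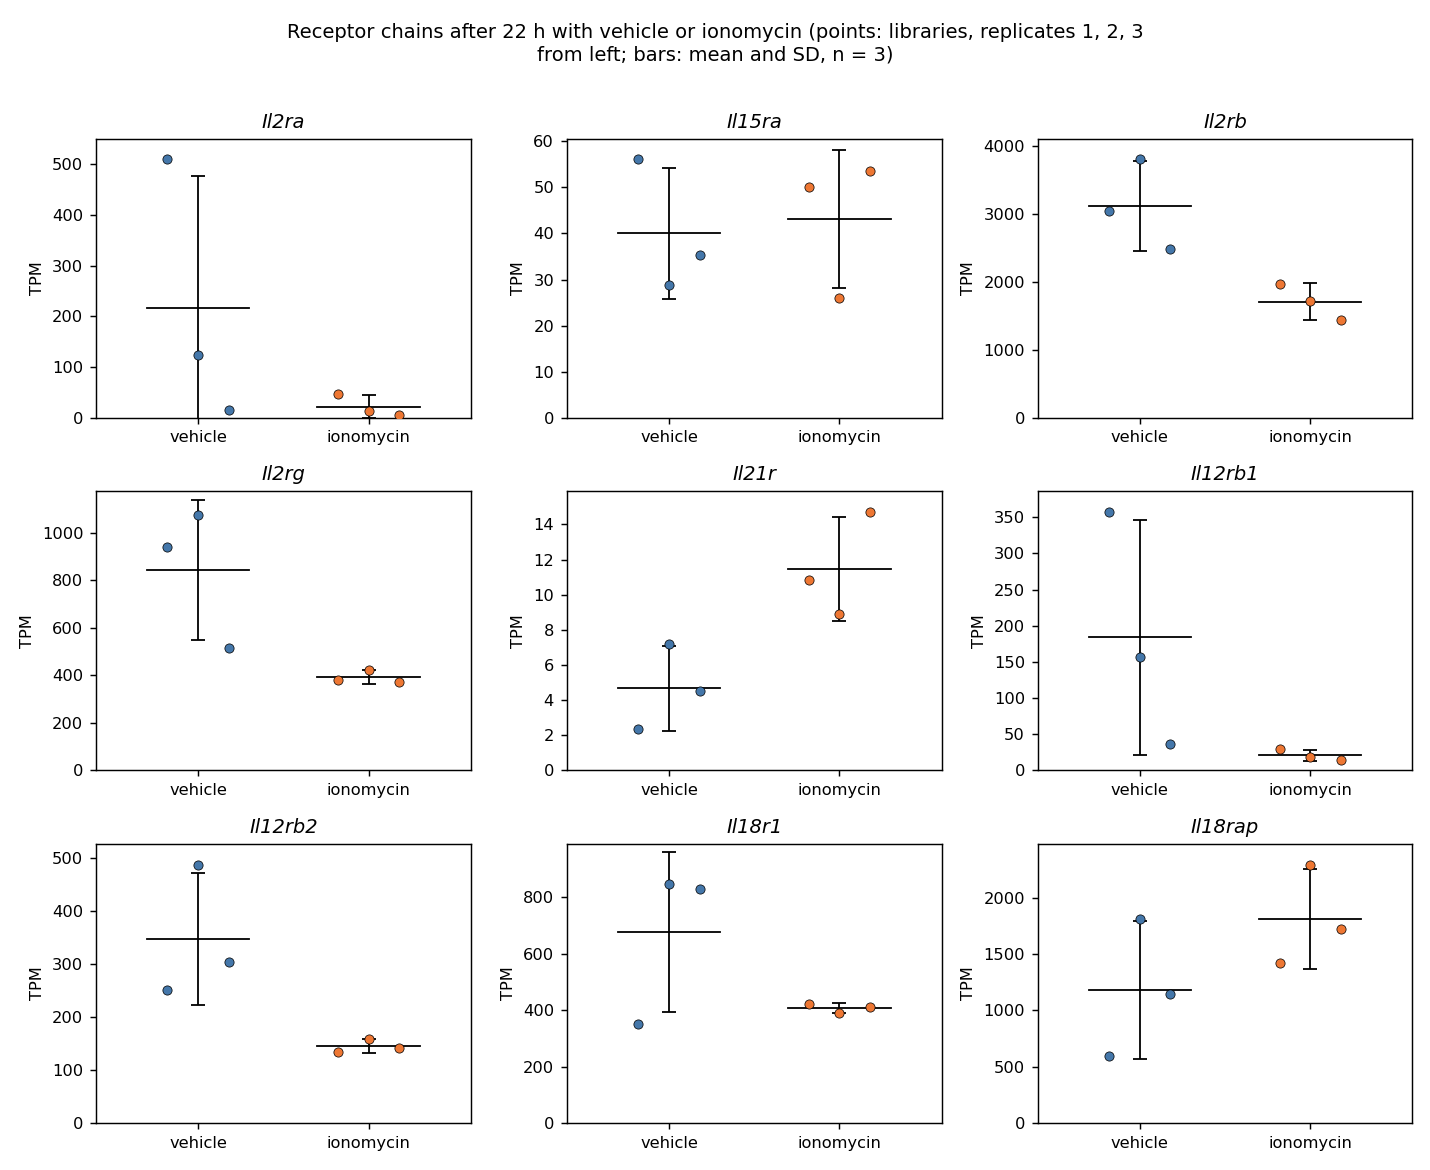
TPM of each receptor chain (y axis, from 0, with its own scale in each panel) in the vehicle and ionomycin libraries (x axis). Points are libraries, with replicates 1, 2 and 3 from left to right, and lines with bars give the mean and SD of 3. By SD the vehicle libraries spread more than the ionomycin libraries for every chain but Il15ra and Il21r.

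The comparison of plate-bound antibodies with medium asks what 48 h of signals through activating receptors do to the chains. Both antibody groups are set against the same 3 medium libraries. Limma called 0 of 9 members with antibodies to NKp46 and NKG2D, where 0.431% of 13689 genes were called. An unadjusted p under 0.05 was found for 2 members and for 2069 of all genes. With antibodies to NKp46 and DNAM-1 limma called 0 of 9, where 0.782% of all genes were called. Here 3 members and 2458 of all genes had an unadjusted p under 0.05. Without overlap with medium were 4 of 9 members for the first pair (17.3% of all genes) and 4 of 9 for the second (21.1%). Between both pairs of antibodies limma called 0 of 9 members, with 0.0146% of all genes called. At an unadjusted p under 0.05 there were 0 members and 167 of all genes.

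Il2rb came closest to a call. It stood at 1756, 1922 and 1969.5 TPM in medium, at 2203, 2401 and 2327 TPM with NKp46 and NKG2D antibodies and at 2286, 2319 and 2339 TPM with NKp46 and DNAM-1 antibodies. All 6 antibody libraries (2203 to 2401 TPM) were above all 3 medium libraries. The difference was 0.30 for the first pair (SE 0.0652, limma adjusted p 0.0950) and 0.30 for the second (limma adjusted p 0.0721). The second was called without medium replicate 3 (limma adjusted p 0.0405), a fit in which 516 of all genes were called, against 107 with all libraries. With the replicate number as a block Il2rb was called for both pairs, in fits that called 239 and 528 of all genes.

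Its partner Il2rg lay the other way. It stood at 806, 827 and 842 TPM in medium, at 718, 727 and 782 TPM with NKp46 and NKG2D antibodies and at 762, 793 and 774 TPM with NKp46 and DNAM-1 antibodies. All 6 antibody libraries were under the 3 medium libraries, with differences of -0.15 (limma adjusted p 0.321) and -0.09 (limma adjusted p 0.533). The ratio of Il2rb to Il2rg, chosen after the levels had been seen, was 2.18, 2.32 and 2.34 in medium. It was 3.07, 3.31 and 2.98 with the first pair and 3.00, 2.92 and 3.02 with the second. Neither overlapped with medium (log2 differences 0.45 and 0.39, exact two-sided permutation p 0.1 each, the smallest possible). Since both chains had already separated from medium in opposite directions, the ratio had to separate and its p adds no support.

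Il2ra stood at 19.9, 19.9 and 28.1 TPM in medium, at 21.2, 27.4 and 64.6 TPM with NKp46 and NKG2D antibodies and at 30.5, 43.2 and 66.3 TPM with NKp46 and DNAM-1 antibodies. The second pair lay above medium without overlap (0.96, 95% interval 0.07 to 1.85, limma adjusted p 0.249), and the first overlapped with it (0.57, limma adjusted p 0.528). Il15ra overlapped between all 3 groups, within 16.7 and 32.3 TPM. Il21r was at 43.5 ± 2.47 TPM (SD, n = 3) in medium, 34.7 ± 5.85 TPM with the first and 41.9 ± 7.03 TPM with the second pair, and was not called.

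The chains for interleukin-12 and interleukin-18 were not called either. Il12rb2 was at 263 ± 15.0 TPM (SD, n = 3) in medium, 261 ± 35.2 TPM with the first pair and 277 ± 29.9 TPM with the second, overlapping throughout. Il12rb1 ran from 48.5 to 95.6 TPM over the 9 libraries, with overlap between all groups. Il18r1 stood at 405, 371 and 329 TPM in medium, at 324, 327 and 305 TPM with the first and at 339, 282 and 287 TPM with the second pair. The first pair lay under medium and the second overlapped with it, with differences of -0.20 and -0.28 (limma adjusted p 0.401 and 0.217). Il18rap stood at 632, 652 and 636 TPM in medium, at 480.3, 627 and 573 TPM with the first and at 622, 551 and 572 TPM with the second pair. All 6 antibody libraries were under medium, with differences of -0.20 and -0.14 (limma adjusted p 0.379 and 0.510). Here both chains lay on the same side of medium, and their ratio overlapped between all 3 groups. For 6 of these 9 samples the title and the table column name different groups. The columns were followed, and grouping by title called 0 of 9 members in each comparison. By title 0, 1 and 0 of all genes were called, against 59, 107 and 2 by column, so the count of 0 members is not particular to the chains.

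**Figure D5:**
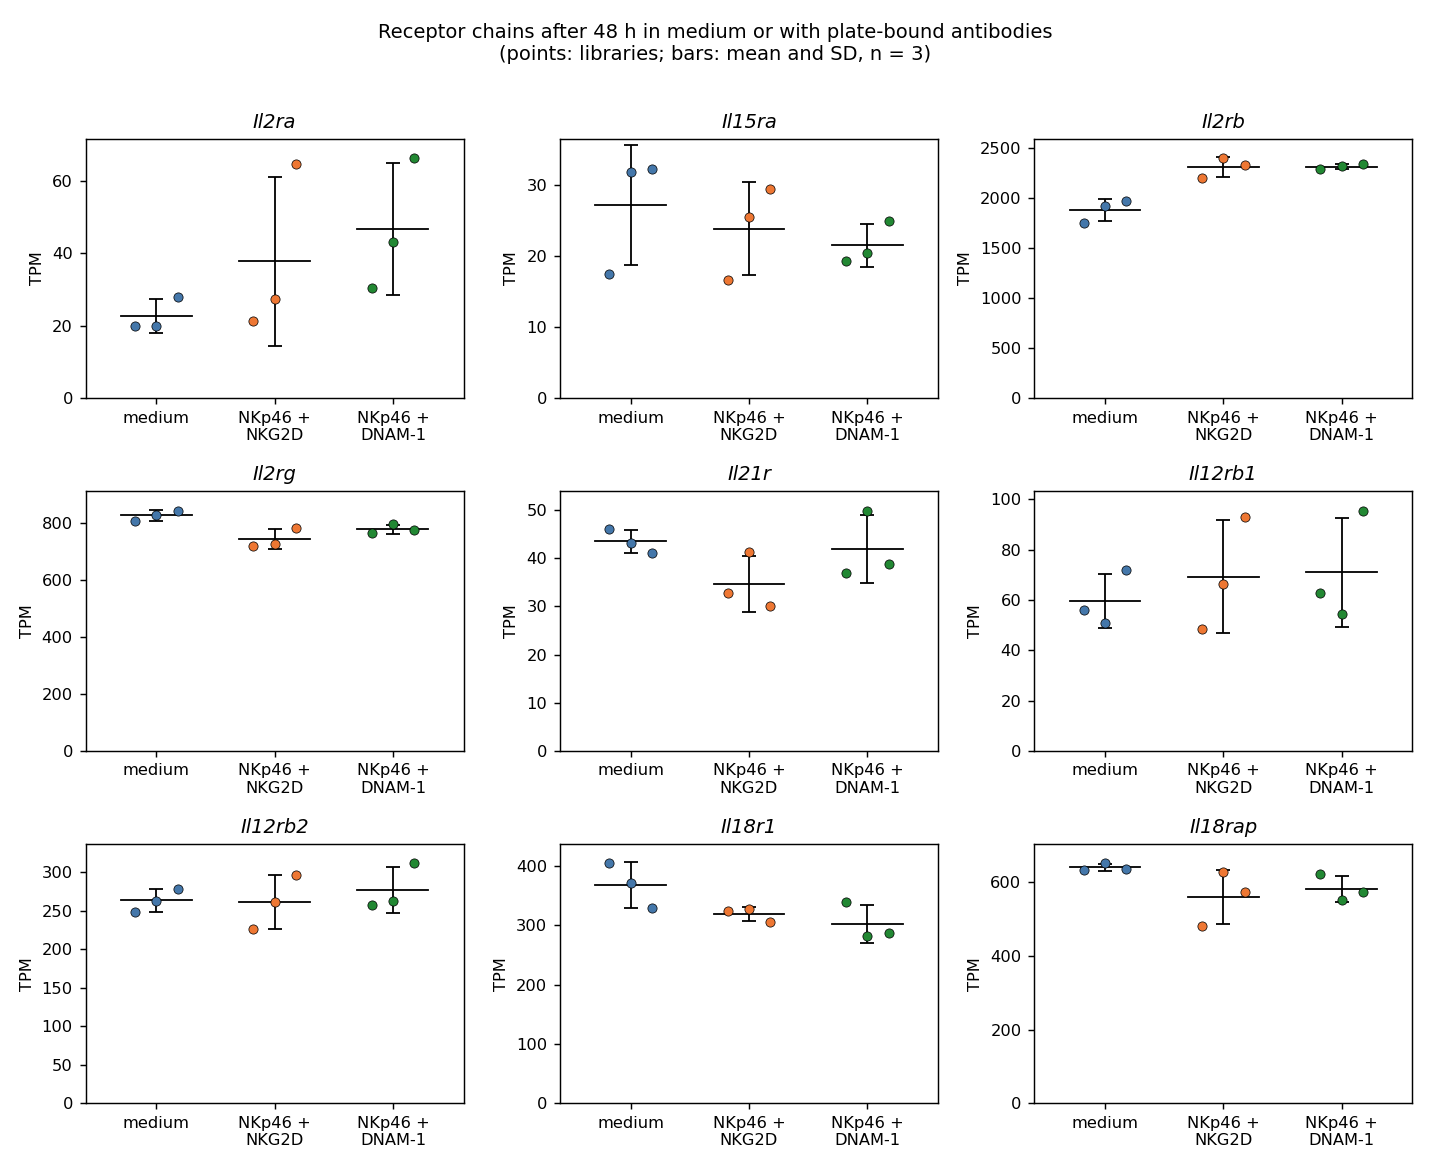
TPM of each receptor chain (y axis, from 0, with its own scale in each panel) after 48 h in medium or with plate-bound antibodies (x axis). Points are libraries, and lines with bars give the mean and SD of 3. All 6 antibody libraries are above the medium libraries for Il2rb (2203 to 2401 TPM) and under them for Il2rg and Il18rap.

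NK cells from B2m-deficient tumours have no control group in their table, so their levels are a description. Their columns also carry the names B2MKO and SP, for which the titles give no reason, and here the titles decided. Il2rb was again the highest chain, at 2239, 1968 and 1787 TPM. It was followed by Il2rg at 839.9, 823 and 848 TPM, Il18rap at 426, 413 and 461 TPM, Il12rb2 at 367, 367 and 340.5 TPM and Il18r1 at 183, 213 and 185 TPM. None of these 5 overlapped with its neighbour. The lower chains were Il21r at 38.2, 23.0 and 26.9 TPM, Il15ra at 35.0, 21.4 and 7.66 TPM, Il12rb1 at 19.0, 21.9 and 20.5 TPM and Il2ra at 5.60, 5.63 and 13.6 TPM. Of the lower chains Il15ra spread most and overlapped with Il21r, Il12rb1 and Il2ra, while Il12rb1 was narrow. Monocyte and macrophage markers summed to between 18.9 and 71.5 TPM in these libraries, red cell markers to between 0 and 333 TPM, and all neutrophil markers were at 0; their part in the levels was not tested.

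A list of 41 other genes of these pathways, of which 31 or 32 were tested in a table, was read in the same comparisons. It holds ligands, related receptor chains, JAK kinases and STAT factors, the interleukin-18 branch from Myd88 to Traf6, and feedback genes and decoys. In KO against WT cells Socs1, a feedback inhibitor of JAK kinases, was the only gene called in TP and the only one called in TN cells. In TP cells it rose from 5.93 ± 0.816 TPM in WT to 16.8 ± 3.58 TPM in KO libraries (SD, n = 3), with a difference of 1.35 (limma adjusted p 0.0408). In TN cells it rose from 5.19 ± 1.80 to 17.7 ± 5.49 TPM (1.61, limma adjusted p 0.0224). In SP cells it was at 7.12 ± 2.30 TPM in WT and 16.7 ± 4.35 TPM in KO libraries, which was not called (1.14, limma adjusted p 0.0997). The call in SP cells was that of Il27ra, a receptor chain for interleukin-27, which fell from 84.7 ± 4.31 to 58.5 ± 2.06 TPM (-0.53, limma adjusted p 0.0439). Averaged over the subsets both were called, 1 higher and 1 lower of the 31 tested, where 6.18% of all genes were called.

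Of all genes 0.2% were called in KO SP against TP cells and 1.89% in TN against TP cells over both genotypes. Of 31 list genes 1 was called in each of these comparisons, and 0 in the other 5 subset comparisons and in the interaction. It was Il7r, the interleukin-7 receptor chain, which fell from 8.12 ± 4.64 TPM in KO TP to 0.357 ± 0.523 TPM in KO SP cells (-2.69, limma adjusted p 0.0373), beside the plasma cell and neutrophil RNA of KO TP cells. Over both genotypes its mean fell from 6.39 TPM in TP to 1.69 TPM in TN cells (-1.54, limma adjusted p 0.0334). With ionomycin 1 of the 31 list genes tested was called higher and 2 lower, where 2.91% of all genes were called. Stat3 rose from 962 ± 116 to 2586 ± 228 TPM (1.43, limma adjusted p 0.00688). Il4ra, which pairs with the gamma chain, fell from 101 ± 32.4 to 28.7 ± 6.54 TPM (-1.76, limma adjusted p 0.0255), and Il27ra from 50.5 ± 7.37 to 12.7 ± 2.57 TPM (-1.92, limma adjusted p 0.0189). Each antibody pair called 1 list gene higher and 1 lower of 32 tested, where 0.431% and 0.782% of all genes were called. The difference between the pairs called 0, where 0.0146% of all genes were called. Pim1, a kinase gene induced by STAT5, rose from 481 ± 38.3 TPM in medium to 697 ± 16.9 TPM with the first pair and 694 ± 38.9 TPM with the second (limma adjusted p 0.0242 and 0.0231). Il7r, another partner of the gamma chain, fell from 30.2 ± 7.09 TPM to 5.72 ± 0.886 TPM and 7.67 ± 2.25 TPM (limma adjusted p 0.00974 and 0.0231). The T cell gene Cd3e lay between 4.54 and 31.4 TPM in medium and between 3.55 and 8.72 TPM over both antibody groups, and its part in the difference of Il7r was not tested.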

How the data were processed

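TPM per gene were deposited by the authors in 4 tables, rounded to 2 decimals. STAR, RSEM and the build GRCm39 are named, without versions, per the submitters' processing notes. The strand setting and read depth are not given in the sources used here, so intervals for counting error cannot be given. Library sums were 934292 to 948786 TPM in the subset table, which lists 32940 genes, and 1000000 in the others, which list 56923. Between 12290 and 18096 genes per library were above 0.

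Genes with a table mean of at least 1 TPM were tested (12018, 14372 and 13689) with limma 3.58.1 in R 4.3.3, on log2(TPM + 1), with all groups of a table in 1 fit, a variance trend and Benjamini-Hochberg adjustment over the table, in 16 comparisons, all two-sided. The fits were tested on simulated data. Fold changes of low genes are understated on this scale. Subset columns and titles share replicate numbers, which do not state a shared mouse, so the fits carry no block. All 9 members are named throughout. Of the pathway list, the called genes are named (at most 6 per comparison), and for each called member the 3 genes most like it, of which 1 is not reported here. The members and lists were chosen with earlier results of these data known. RefSeq promoter windows of GRCm38.p6 matched 7 of 9 members (10 windows), and no positions are given for TPM rows, which were made on another build. Alternatives were a pseudocount of 0.1, no filter or a mean of at least 5 TPM, median-of-ratios and quantile scaling, no variance trend, only the compared groups, a replicate block, titles as groups and each library left out. Other steps used Python 3.11.15, pandas 2.3.3 and numpy 2.4.6.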

Additional observations from a re-analysis of the deposited data

How the results depend on the processing

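TPM carry no depth, and 3 libraries per group set the precision. Of 10 called differences of members under 180 alternatives, 135 kept their call, 45 lost it and 0 changed direction. The counts of called members moved as follows. In KO against WT TP cells (2 called), 1 was called without a filter on low values (Il18r1), 1 without the variance trend (Il21r), 0 with only the compared groups and 0 to 2 with each library left out. Of all genes 187, 151, 43 and 109 to 144 were called in these fits, against 191. In SP cells (3 called) it was 1, 1 and 0 under the same settings, with the same genes, and 1 to 3 with each library left out (all genes 149, 147, 68 and 91 to 165, against 162). For TN against TP over both genotypes (2 called) it was 0 without the trend, 1 with only the compared groups and 0 to 2 with each library left out (all genes 183, 173 and 175 to 236, against 227). For WT TN against TP (0 called) it was 0 to 1 with each library left out (all genes 101 to 149, against 157). For ionomycin (0 called) it was 1 with a mean of at least 5 TPM, 1 with median-of-ratios scaling (both Il12rb2), 1 with quantile scaling (Il2rb) and 0 to 2 with each library left out (all genes 484, 436, 459 and 3 to 342, against 418). For the NKp46 and DNAM-1 antibodies (0 called) it was 0 to 1 with each library left out (all genes 26 to 516, against 107). In these cases the cause was not tested. Fits with only the compared groups or without a library also use fewer samples, and the part of that in the counts was not tested. Il18rap in TP cells was not called after quantile scaling (limma adjusted p 0.184).

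With the replicate number as a block, 4 members were called for ionomycin (Il2ra, Il2rb, Il12rb1 and Il12rb2), 1 for each antibody pair against medium (Il2rb). Of all genes 477 were called for ionomycin (418 without the block), 239 for NKp46 and NKG2D (59) and 528 for NKp46 and DNAM-1 (107). The block moved no other count of called members. The deviations of libraries from their group means were compared by correlation between same-numbered libraries. The correlation was above 0.1 in 1 of 3 ionomycin pairs, 1 of 9 antibody pairs and 0 of 18 subset pairs. Its mean was 0.062 for the same number and -0.031 for other numbers in the ionomycin table. In the antibody table it was 0.0639 and -0.032. Such values cannot exclude pairs, and the main fits did not treat the numbers as pairs. Whether same-numbered libraries share a mouse is not given in the sources used here. Genotypes could not be blocked, since WT and KO libraries are numbered separately.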
